A study of Arabidopsis thaliana with 30 samples.

Results

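A set of 104 Arabidopsis thaliana genes had transcript levels that moved in opposite directions in roots and shoots of wild-type seedlings given a cytokinin. They were chosen from 33199 features by their Col means: the mean of log2(FPKM + 1) with cytokinin minus that with mock was of opposite sign in roots and shoots and 0.4 or more in size in each, and the mean was 3 FPKM or more in at least 1 Col group of each organ. FPKM is a read count scaled by gene length and library depth. Of 13135 genes at that level, 49 were higher in roots and lower in shoots, and 55 were lower in roots and higher in shoots. Together they were 0.792% of those genes, while 281 genes were higher and 188 lower in both organs at the same sizes.

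The seedlings were wild-type Columbia (Col) or the mutant ahp4, allele ahp4-2, both 7 days old. They were moved for 2 h into liquid medium holding the cytokinin 6-benzylaminopurine (BA) at 100 nM, or holding its solvent DMSO as mock. AHP4 is a histidine phosphotransfer protein, a carrier of phosphate between cytokinin receptors and nuclear response regulators. Col had 4 libraries in each of root mock, root BA, shoot mock and shoot BA. For ahp4 there were 4 in each root group and 3 in each shoot group. Each genotype was 1 line. The labels do not name separate cultures behind the libraries, so a p-value here reflects only library-to-library spread, which may be technical. Since whole organs were pooled, fewer cells of a type and less RNA per cell cannot be told apart.

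Cytokinin is sensed by histidine kinases in membranes. The signal passes through phosphotransfer proteins to type-B response regulators, which switch on genes such as the type-A regulators within minutes to hours. In roots the hormone restrains meristem size and lateral root formation and acts against auxin, whereas in shoots it promotes cell division and leaf growth. Genes tied to auxin, ethylene and cell division are therefore well-known places where both organs can respond unlike each other.

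Libraries held 9205127 to 13779004 rebuilt reads. AHP4 itself was at 0.539 to 1.71 FPKM in Col mock roots and at 0.347 to 0.435 FPKM in ahp4 mock roots. In mock shoots it was at 2.66 to 10.6 FPKM in Col and 0.808 to 2.49 FPKM in ahp4, so in mock the mutant was lower in both organs without overlap. With BA the genotypes overlapped in roots, at 0 to 0.885 FPKM in Col and 0 to 0.514 FPKM in ahp4, but not in shoots. The library ahp4 root mock replicate 1 carries labels that disagree on genotype and treatment, and it was grouped by its title. The type-A regulator ARR5, a standard cytokinin-response gene, was at 21.4 FPKM in it, within the 13.7 to 36.5 FPKM of its group and below the 166 to 203 FPKM of ahp4 BA roots. Summed FPKM of 12 shoot markers in root libraries was 0.143 to 0.665% of the mean of the shoot groups. In ahp4 roots that sum was 122 to 396 FPKM in mock and 197 to 334 FPKM with BA. The same sum for 12 root markers in ahp4 shoots was 421 to 649 FPKM in mock and 357 to 651 FPKM with BA, nearly all of it PYK10, and the root-hair genes EXPA7 and EXPA18 and the root gene MRN1 were at 0 in each ahp4 shoot group. Both ranges overlapped between treatments.

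Among the 49 genes higher in roots, the Col change ran from 0.40 to 2.75 in roots, with a median of 0.65, and from -1.56 to -0.41 in shoots, with a median of -0.52. Among the other 55 genes it ran from -1.81 to -0.42 in roots, with a median of -0.57, and from 0.41 to 2.02 in shoots, with a median of 0.71. All changes are on the log2(FPKM + 1) scale. These Col values are the choice itself and were not tested. Just inside the threshold were AT1G73740, UGT76E2 and GLTP3 in the first set, whose smaller change was 0.402, 0.404 and 0.410 in size, and NUDT4, AT2G18860 and ECT11 in the second, at 0.410, 0.414 and 0.415. Just outside were AT4G15610 and AtHB23 at 0.398 and 0.387, AT1G62510 and AT5G22920 both at 0.399, and MP and AR781, which fell short of 0.4 only beyond the third decimal.

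The ahp4 libraries took no part in the choice. All 104 genes passed the filter on low values there, which asked for at least 1 FPKM in 3 libraries. Of the 49 genes, 22 rose with BA in ahp4 roots, against 9.78% of the 20256 genes tested. In ahp4 shoots 9 of them fell, against 2.01% of all genes. That share, 18.4%, rested on single libraries, being 2.04% without shoot mock replicate 2 and 4.08% without shoot mock replicate 3 or shoot BA replicate 2. The test of the organ difference itself, the root change minus the shoot change, found 27 of 49 higher, against 4.42% of all genes. A gene can pass this test through a change in 1 organ alone. Of the 55 genes, 17 fell in ahp4 roots, against 7.68%, and 18 rose in ahp4 shoots, against 3.58%. The latter share of 32.7% was as low as 16.4% when 1 library was left out. Their organ difference was lower in 27 of 55, against 4.04%. No member was called against its Col direction in either organ or in the organ difference by limma or by voom on rebuilt reads. At an unadjusted p under 0.05, 1 of the 49 was lower in roots, 1 of them was lower in the organ difference, and 1 of the 55 was lower in shoots.

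The ahp4 libraries were also compared by overlap alone. In roots the BA libraries all lay above the mock libraries for 21 of the 49 genes, beside 11.6% of all genes, and all below for 20 of the 55, beside 10.6%. In shoots they all lay below for 16 of the 49, beside 12.1%, and all above for 28 of the 55, beside 9.88%. For 1 of the 55, the shoot BA libraries all lay below mock.

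The median organ difference in ahp4 was 1.06 for the 49 genes and -1.23 for the 55, beside 0.04 for all genes tested. Without ahp4 root mock replicate 1, 16 of the 49 rose in roots and 23 were higher in the organ difference. Of the 55, 14 then fell in roots and 23 were lower in the organ difference. In shoots 7 of the 49 then fell and 16 of the 55 rose. The signs of both ahp4 changes matched those of Col in 44 of 49 genes, beside 24.1% of all genes with that pair of signs, and in 50 of 55, beside 18.4%. The size thresholds of the choice were met again by 18 of 49 in the ahp4 means, beside 0.607% of all genes, and by 22 of 55, beside 0.8%. Being called in each organ separately was rarer. AT4G23050, AT3G60520, HB5 and the rRNA gene AT2G01020 rose in roots and fell in shoots, 4 of 49 beside 0.0691% of all genes. AT5G28630, GDPD2, XTH31, AT3G59670 and AT1G21050 fell in roots and rose in shoots, 5 of 55 beside 0.0938%. Among these 9, AT3G59670 alone kept both organ calls under each of the 22 alternatives run, and in each of the others the less steady organ call was lost under 2 to 17 of them.

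**Figure D1:**
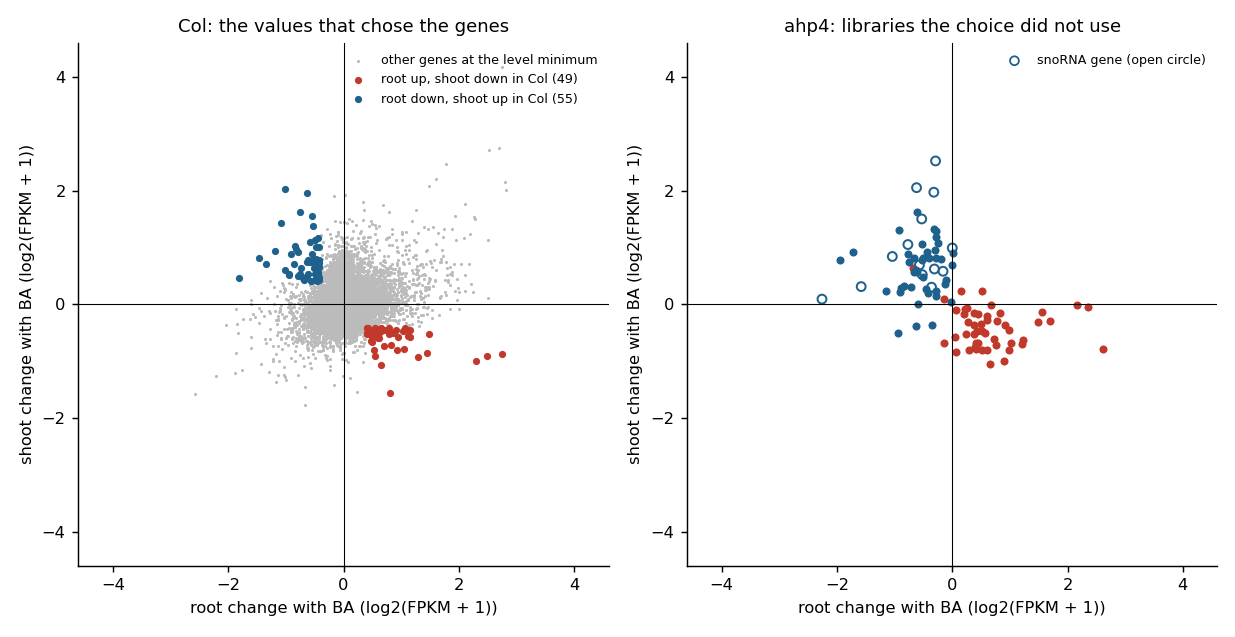
Change with BA in roots (x axis) and in shoots (y axis), both on the log2(FPKM + 1) scale, in Col for the 13135 genes at the level minimum (grey, with the chosen genes in red and blue) and in ahp4 for the 104 chosen genes alone. Each point is 1 gene. In ahp4, 44 of 49 red points lie in the lower right part and 50 of 55 blue points in the upper left.

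The largest Col root change in the first set was that of GH3.3, at 2.75. It belongs to the GH3 family, acyl-amido synthetases that join hormones to amino acids. GH3.3, WES1 (GH3.5) and DFL1 (GH3.6) conjugate indole-3-acetic acid, the main auxin, which stores or inactivates it, and GH3.17 acts on the same hormone with glutamate. These 4 were members of 7 GH3 genes at the level minimum, and none of the 7 was in the opposite set. Promoters of 3 of them are shown because the genes moved together. Each is the 300 bases before the annotated gene start, read 5′ to 3′ on the gene's strand from the TAIR10.1 genome with its RefSeq annotation. GH3.3 lies at chr2:9866563-9866862, minus strand, WES1 at chr4:13653279-13653578, plus strand, and DFL1 at chr5:22133689-22133988, minus strand. Capitals mark TGTCTC, the auxin response element, and the longest run shared by DFL1 and WES1.
GH3.3: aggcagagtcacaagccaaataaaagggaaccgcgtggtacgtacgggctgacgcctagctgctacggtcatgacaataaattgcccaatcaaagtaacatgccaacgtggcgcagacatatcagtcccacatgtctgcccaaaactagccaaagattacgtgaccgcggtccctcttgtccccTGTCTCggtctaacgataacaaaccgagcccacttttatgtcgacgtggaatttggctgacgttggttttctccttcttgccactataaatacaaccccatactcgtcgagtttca
WES1: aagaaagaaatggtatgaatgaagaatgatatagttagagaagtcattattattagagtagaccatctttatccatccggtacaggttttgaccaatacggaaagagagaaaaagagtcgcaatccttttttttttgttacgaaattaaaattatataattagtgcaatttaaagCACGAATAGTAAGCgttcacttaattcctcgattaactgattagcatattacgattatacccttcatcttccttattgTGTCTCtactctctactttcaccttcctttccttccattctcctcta
DFL1: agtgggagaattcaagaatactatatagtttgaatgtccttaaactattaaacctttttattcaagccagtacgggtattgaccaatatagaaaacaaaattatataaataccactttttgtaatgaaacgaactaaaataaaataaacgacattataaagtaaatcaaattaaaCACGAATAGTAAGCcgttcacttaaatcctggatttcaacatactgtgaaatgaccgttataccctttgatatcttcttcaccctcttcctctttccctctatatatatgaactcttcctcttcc

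TGTCTC was found once in GH3.3, at position 185 of the window, and once in WES1, at position 254. DFL1 and GH3.17 held it on neither strand of the window. DFL1 and WES1 shared an unbroken run of 14 bases that starts at position 176 in both windows. Among the other pairs of the 4 promoters the longest shared run was 7 to 10 bases.

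Col root levels of GH3.3 were 5.41, 3.46, 6.15 and 2.80 FPKM in mock and 22.8, 57.9, 31.5 and 34.2 FPKM with BA. In Col shoots they were 16.4, 20.2, 25.4 and 28.7 FPKM in mock and 9.33, 12.8, 9.51 and 16.6 FPKM with BA. The ahp4 roots had 4.80, 4.74, 4.69 and 5.58 FPKM in mock and 32.9, 36.4, 37.9 and 34.6 FPKM with BA, with a wide gap between the groups. GH3.3 thus sat lower in mock roots than in mock shoots of Col and higher in BA roots than in BA shoots. Its shoot libraries in ahp4 had 9.94, 25.4 and 34.6 FPKM in mock and 4.83, 22.4 and 13.7 FPKM with BA, which overlapped. The ahp4 root change was 2.62 ± 0.37 (SE, adjusted p = 0.000214), the shoot change was -0.79 ± 0.42 (adjusted p = 0.324), and the organ difference was 3.40 ± 0.56 (adjusted p = 0.00325).

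DFL1 was at 9.01, 13.9, 13.3 and 11.6 FPKM in ahp4 mock roots and at 23.4, 30.4, 26.3 and 37.2 FPKM in BA roots. Its ahp4 shoots had 25.1, 31.5 and 21.0 FPKM in mock and 8.52, 27.6 and 17.5 FPKM with BA, replicate 2 of the BA group being as high as mock. Root groups were apart and shoot groups overlapped. The root change was 1.22 ± 0.26 (adjusted p = 0.00493) and the organ difference 1.85 ± 0.40 (adjusted p = 0.0126). WES1 had 19.0, 40.9, 26.7 and 25.6 FPKM in ahp4 mock roots and 54.2, 45.4, 47.6 and 57.1 FPKM in BA roots. Its ahp4 shoots had 18.9, 34.6 and 34.4 FPKM in mock and 8.77, 20.5 and 13.8 FPKM with BA. The root groups of WES1 were apart, with mock replicate 2 close to the BA libraries, and the shoot groups overlapped by 1 library. Its root change of 0.89 ± 0.25 (adjusted p = 0.0264) was lost when any 1 of root BA replicates 1 or 4 or root mock replicates 1, 3 or 4 was left out (adjusted p up to 0.0846, without mock replicate 1), while its organ difference was 1.89 ± 0.39 (adjusted p = 0.00983).

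GH3.17 is mainly a root gene, unlike GH3.3 and DFL1. It was at 17.2, 39.3, 20.6 and 18.7 FPKM in ahp4 mock roots and at 34.7, 46.8, 54.3 and 50.2 FPKM in BA roots, where mock replicate 2 overlapped the BA group. In ahp4 shoots it was at 4.70, 5.79 and 6.18 FPKM in mock and at 4.07, 2.11 and 2.35 FPKM with BA, all of the latter lower. The root change was 0.99 ± 0.23 (adjusted p = 0.00808), the shoot change was -0.80 ± 0.27 (adjusted p = 0.0974), and the organ difference was 1.79 ± 0.35 (adjusted p = 0.00793). In mock ahp4 seedlings the root minus shoot level was 1.85 for GH3.17 and called, and it was -1.87 for GH3.3 and -1.05 for DFL1, both called.

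Of 15 GH3 genes tested in ahp4, 8 rose and 3 fell in roots, beside 9.78% and 7.68% of all genes. The organ difference was higher in 6 and lower in 1, beside 4.42% and 4.04%. The chosen genes thus make up 4 of the 8 and 4 of the 6. In shoots limma called 0 of the 15, beside 3.58% higher and 2.01% lower of all genes. Voom called 0 there, and by limma 2 were lower at an unadjusted p under 0.05. BRU6 is a GH3 gene whose Col shoot means, 2.38 FPKM in mock and 2.80 FPKM with BA, were under the level minimum. It could therefore not be chosen. Its Col roots had 19.7 FPKM in mock and 49.4 FPKM with BA. It rose by 1.15 in ahp4 roots (adjusted p = 0.0155), so it shared the root side without a shoot decrease in Col.

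**Figure D2:**
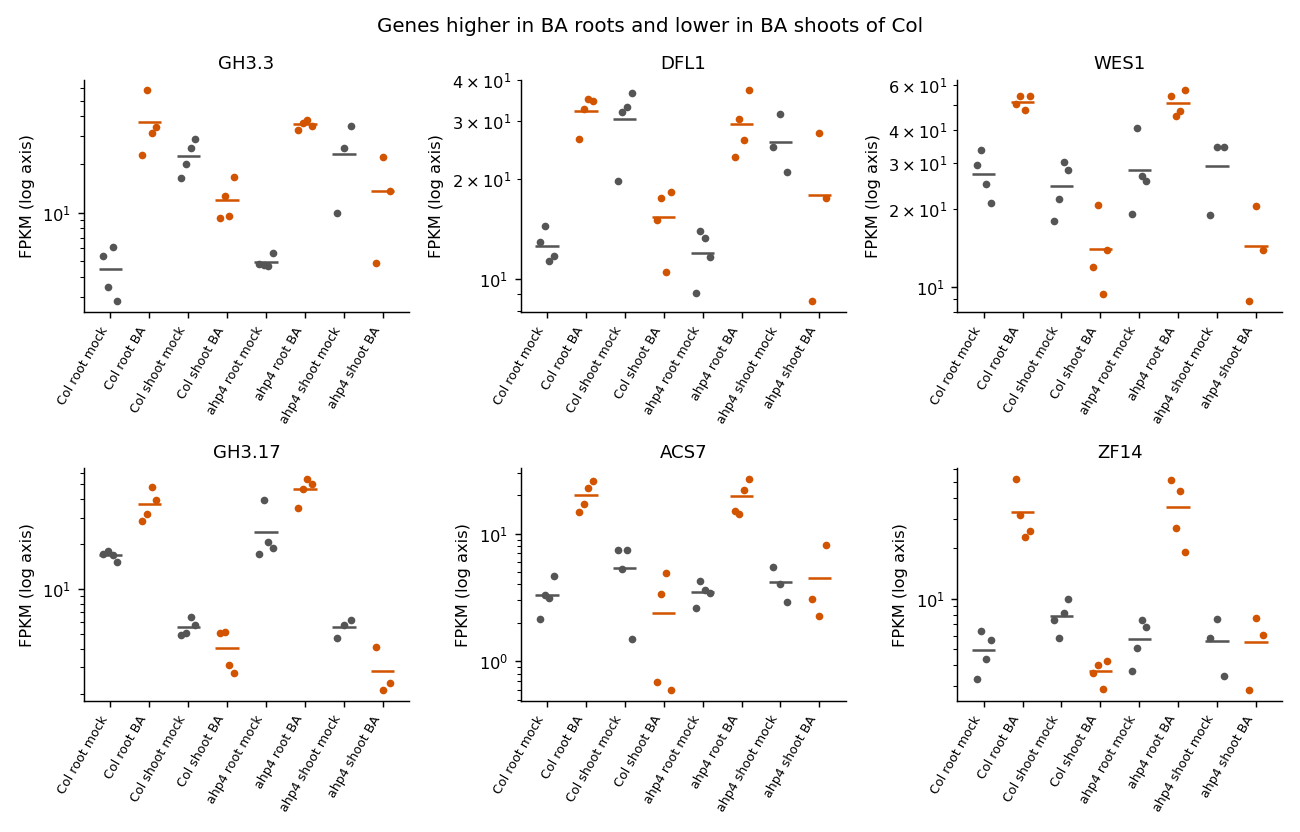
FPKM (log axis) of 6 genes by library in the 8 groups, with mock in grey, BA in orange and a line at each group mean. In ahp4 the root groups of GH3.3, DFL1, WES1, ACS7 and ZF14 do not overlap, while GH3.17 mock replicate 2 reaches the BA range.

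ACS7 makes the precursor of ethylene and was the only member among 10 genes of the ACS and ACO families at the level minimum. Its Col roots had 2.15, 3.33, 3.12 and 4.63 FPKM in mock and 14.9, 17, 22.6 and 25.8 FPKM with BA. In ahp4 roots the values were 2.62, 4.29, 3.61 and 3.43 FPKM in mock and 15.1, 14.3, 22.0 and 26.8 FPKM with BA. In ahp4 roots the treatments were far apart, while the Col values are part of the choice itself. The ahp4 shoots had 5.48, 4.05 and 2.91 FPKM in mock and 3.09, 2.25 and 8.20 FPKM with BA, with the highest and the lowest library both in the BA group. The root change was 2.16 ± 0.29 (adjusted p = 0.000138), the shoot change was -0.02 ± 0.33 (adjusted p = 1), and the organ difference was 2.19 ± 0.44 (adjusted p = 0.00875). In Col the shoot change was of the size of -1, and the genotypes were not tested against each other.

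ZF14, annotated as a MATE efflux transporter, followed the same course. It was at 3.68, 5.03, 7.42 and 6.75 FPKM in ahp4 mock roots and at 51.6, 26.5, 43.9 and 18.9 FPKM in BA roots. Its ahp4 shoots had 5.82, 7.52 and 3.44 FPKM in mock and 2.82, 7.65 and 6.02 FPKM with BA. The root change was 2.36 ± 0.33 (adjusted p = 0.000194), the shoot change was -0.05 ± 0.38 (adjusted p = 0.983), and the organ difference was 2.42 ± 0.50 (adjusted p = 0.00985). Its Col shoot change had been -0.91.

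ELIP1, an early light-induced protein of the chlorophyll-binding family, rose by 1.69 ± 0.41 in ahp4 roots (adjusted p = 0.0103), from 3.80 to 8.83 FPKM in mock to 10.8 to 31.4 FPKM with BA. Its organ difference of 1.98 ± 0.63 was not called (adjusted p = 0.0665). Among shoot markers, LHCB2.1 and HEMA1 also rose in ahp4 roots and GLK2 fell, and the other 9 of 12 were not called. At the share of the shoot markers, carried-over shoot RNA would add -0.00334 FPKM to the ELIP1 difference in ahp4 roots, which was 15.4 FPKM. The part of shoot tissue in the root values was not tested.

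Homeodomain genes were met 4 times among the 49, as HB-7, HB-12, HB5 and BLH1, of 159 genes with such a product name that were tested. Of these 159, 19 rose and 16 fell in ahp4 roots, beside 9.78% and 7.68% of all genes. In ahp4 shoots 2 rose and 3 fell, beside 3.58% and 2.01%. The organ difference was higher in 11 and lower in 5, beside 4.42% and 4.04%. HB-12 and BLH1 were picked out after their values were seen. HB-7 and HB-12 are related leucine-zipper factors known for induction by abscisic acid and water deficit. HB5 was at 54.5, 53.5, 49.7 and 55.1 FPKM in ahp4 mock roots and at 61.1, 69.7, 85.9 and 62.9 FPKM in BA roots. Levels in ahp4 shoots were 49.3, 53.8 and 50.6 FPKM in mock and 27.8, 38.9 and 40.4 FPKM with BA. Neither organ overlapped between treatments. In mock the root minus shoot level of HB5 was 0.05. It rose by 0.38 ± 0.12 in roots (adjusted p = 0.044) and fell in shoots (change -0.53 ± 0.14, adjusted p = 0.0388), with an organ difference of 0.90 ± 0.18 (adjusted p = 0.0093). Neither organ alone was a steady call: the root call was lost under 13 and the shoot call under 12 of 22 alternatives, among them no filter, read totals, quantile normalization and leaving out root mock replicate 1 (adjusted p up to 0.129 and 0.131). The organ difference was called under all 21 of its alternatives.

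HB-12 rose in ahp4 roots by 1.02 ± 0.30 (adjusted p = 0.0322), with an organ difference of 1.71 ± 0.47 (adjusted p = 0.0375). BLH1, which overlaps another gene and is uncertain, rose by 0.43 ± 0.12 (adjusted p = 0.025), with a difference of 0.90 ± 0.19 (adjusted p = 0.0104). The root calls of HB-12 and BLH1 were lost under 6 and 4 of 22 alternatives, each of which left out 1 root library, root mock replicate 1 among them (adjusted p = 0.0741 and 0.0808 without it). The organ difference of HB-12 was lost under 14 of 21, voom among them (adjusted p up to 0.0974). HB-7 had a root change of 0.72 ± 0.33 and a difference of 1.34 ± 0.50, neither called (adjusted p = 0.15 and 0.117). It was at 21.6, 36.1, 23.6 and 22.9 FPKM in ahp4 mock roots and 33.2, 41.5, 80.8 and 29.9 FPKM in BA roots, which overlapped.

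ABI1, a PP2C phosphatase that holds back abscisic acid signalling, was also picked out after its values were seen, and it overlaps another gene. It was at 43.4, 51.1, 41.9 and 46.0 FPKM in ahp4 mock roots and at 84.5, 85.9, 131 and 71.2 FPKM in BA roots. In ahp4 shoots it was at 31.7, 37.8 and 37.8 FPKM in mock and at 26.1, 22.9 and 28.0 FPKM with BA, again without overlap. The organ difference was 1.45 ± 0.23 (adjusted p = 0.00237), from a root change of 0.98 ± 0.15 (adjusted p = 0.000378) and a shoot change of -0.46 ± 0.17 (adjusted p = 0.137). SKP2A, an F-box protein tied to cell division control and also picked out afterwards, rose by 0.78 ± 0.17 in ahp4 roots (adjusted p = 0.00536), with a difference of 1.08 ± 0.26 (adjusted p = 0.022). That difference was lost by voom and without shoot BA replicate 2 (adjusted p up to 0.0678).

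The cytochrome P450 list, oxygenases of many pathways, gave 4 members higher in roots and 1 lower, of 74 P450 genes at the level minimum. Apart from CYP706A4 these members were picked out afterwards. CYP81F2, which modifies indole glucosinolates, rose by 1.55 ± 0.24 in ahp4 roots (adjusted p = 0.000444), with a shoot change of -0.14 ± 0.27 (adjusted p = 0.857). CYP706A4 rose by 0.60 ± 0.12 in roots (adjusted p = 0.0034), with an organ difference of 0.81 ± 0.19 (adjusted p = 0.017, and 0.0516 without shoot mock replicate 2). CYP81H1, which overlaps another gene, fell in shoots (change -0.79 ± 0.19, adjusted p = 0.0259), a call lost under 7 of 22 alternatives, voom among them (adjusted p up to 0.099). CYP89A9 was called in no test (organ difference 0.53 ± 0.25, adjusted p = 0.211). In the whole P450 list, 41 of 181 genes tested rose and 22 fell in ahp4 roots, beside 9.78% and 7.68% of all genes. The organ difference was higher in 25 and lower in 4 of them, beside 4.42% and 4.04%. UGT76E2, a glycosyltransferase just inside the threshold, was at 2.93, 2.92 and 2.98 FPKM in ahp4 mock shoots and at 1.96, 0.927 and 1.01 FPKM in BA shoots. It fell there (change -0.81 ± 0.19, adjusted p = 0.0223), although its Col shoots had 0 to 7.98 FPKM with BA and overlapped mock. The shoot call was lost under 7 of 22 alternatives, voom and the fit of all 30 libraries among them (adjusted p up to 0.513). Its organ difference of 1.1 (adjusted p = 0.016) was lost by voom and in that fit (up to 0.275).

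Wall and metal-binding genes with high shoot levels had the sign of Col but were not called. XTH24, which cuts and rejoins wall xyloglucan, was at 248, 468 and 387 FPKM in ahp4 mock shoots and at 249, 170 and 251 FPKM in BA shoots, with an organ difference of 1.13 ± 0.39 (adjusted p = 0.0907). MT2A, a metallothionein, had a difference of 1.06 ± 0.33 (adjusted p = 0.0652), the actin depolymerizing factor ADF9 one of 1.1 ± 0.38 (adjusted p = 0.0917), and the plastid envelope protein OEP16-1 one of 0.90 ± 0.47 (adjusted p = 0.271). GLTP3 and AT1G73740, both just inside the threshold, had differences of 0.31 ± 0.35 and 0.18 ± 0.22 (adjusted p = 0.644 and 0.675).

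Genes without a symbol that were called in both organs were picked out afterwards. AT4G23050, annotated as a PAS-domain kinase, was at 9.10, 13.7, 10.3 and 10.4 FPKM in ahp4 mock roots and at 16.3, 18, 27.7 and 15.2 FPKM in BA roots. Its shoot libraries in ahp4 had 6.73, 8.03 and 7.65 FPKM in mock and 4.52, 3.44 and 4.57 FPKM with BA. No group overlapped its counterpart, and the organ difference was 1.47 ± 0.25 (adjusted p = 0.00416). Its shoot call was lost under 14 of 22 alternatives, voom among them (adjusted p up to 0.147). AT3G60520, a zinc-binding protein by annotation, had 5.76 to 8.02 FPKM in ahp4 mock roots and 8.16 to 11.6 FPKM in BA roots, and 13.1 to 14.5 FPKM in mock shoots and 5.85 to 9.69 FPKM in BA shoots. Its organ difference was 1.41 ± 0.22 (adjusted p = 0.00237), and its shoot call was lost without shoot BA replicate 2 or shoot mock replicate 2 (adjusted p up to 0.0539). AT2G01020 is a ribosomal RNA gene, its difference was 1.70 ± 0.32 (adjusted p = 0.00664), and reads of such repeats can be split between copies, so it is uncertain. Its root call was lost under 16 and its shoot call under 7 of 22 alternatives (adjusted p up to 0.263 and 0.177), and the difference in the fit of all 30 libraries (0.0654).

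The second set held TAA1, picked out after its values were seen. It encodes the aminotransferase that opens the main route of auxin synthesis. Its Col shoots had 14.4, 16.3, 14.5 and 18.4 FPKM in mock and 36.7, 31.9, 45.4 and 33.7 FPKM with BA. In ahp4 shoots, which took no part in the choice, it was at 14.6, 15.7 and 10.7 FPKM in mock and at 35.5, 37.0 and 24.7 FPKM with BA, without overlap. The ahp4 roots had 8.53, 6.06, 10.2 and 7.46 FPKM in mock and 5.87, 6.00, 6.80 and 6.72 FPKM with BA, where mock replicate 2 lay inside the BA range. TAA1 rose by 1.18 ± 0.18 in ahp4 shoots (adjusted p = 0.00171), its root change was -0.28 ± 0.16 (adjusted p = 0.247), and its organ difference was -1.47 ± 0.24 (adjusted p = 0.00328).

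PAR1, a small helix-loop-helix protein that restrains auxin-responsive growth in shade, was at 8.66, 6.11, 8.12 and 6.02 FPKM in ahp4 mock roots and at 3.41, 4.07, 4.45 and 4.76 FPKM in BA roots. Its ahp4 shoots had 20.1, 27.6 and 33.7 FPKM in mock and 29.3, 47.0 and 46.4 FPKM with BA. Root groups were apart and shoot groups overlapped by 1 library. It fell in roots (change -0.66 ± 0.18, adjusted p = 0.019), a call lost by voom and without root BA replicate 1 or root mock replicates 1 or 3 (adjusted p up to 0.0751), and its organ difference was -1.23 ± 0.27 (adjusted p = 0.0138). The SAUR list, small auxin-induced growth genes, had 2 members, AT1G72430 and AT5G20820, of 18 at the level minimum. Neither was called, with organ differences of -0.99 ± 0.35 and -1.57 ± 0.56 (adjusted p = 0.0984 and 0.103). CYP90D1, a brassinosteroid-synthesis P450 picked out afterwards, had a difference of -0.42 ± 0.20 (adjusted p = 0.225). TMAC2, a repressor in abscisic acid signalling that was also picked out afterwards, rose by 0.80 ± 0.19 in ahp4 shoots (adjusted p = 0.0259), with a difference of -0.99 ± 0.25 (adjusted p = 0.0285). Leaving out 1 library ended its shoot call in 5 cases, shoot BA replicates 1 and 2 and each shoot mock replicate (adjusted p up to 0.0847). It ended the organ difference without root mock replicate 3, shoot BA replicates 1 or 2 or shoot mock replicates 2 or 3 (up to 0.0673).

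XTH31 and GDPD2 were mainly root genes. Each was called in both organs, but not steadily so. XTH31, of the same wall-enzyme family as XTH24, was at 111, 146, 113 and 94.8 FPKM in ahp4 mock roots and at 51.4, 75.9, 62.0 and 81.9 FPKM in BA roots. Levels in ahp4 shoots were 7.44, 6.90 and 4.62 FPKM in mock and 18.7, 9.02 and 10.8 FPKM with BA, and neither organ overlapped. It fell in roots (change -0.77 ± 0.21, adjusted p = 0.0202) and rose in shoots (0.88 ± 0.24, adjusted p = 0.0492), with an organ difference of -1.65 ± 0.32 (adjusted p = 0.00765). The shoot call was lost under 17 of 22 alternatives, voom and leaving out root mock replicate 1 among them (adjusted p up to 0.225). The root call was lost without root BA replicates 1 or 3 or root mock replicate 2 (up to 0.0632), and the organ difference was called under all 21 of its alternatives. The XTH list of 29 genes tested had 5 higher and 5 lower in ahp4 roots, beside 9.78% and 7.68% of all genes. It had 1 higher and 6 lower in the organ difference, beside 4.42% and 4.04%.

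GDPD2, a glycerophosphodiester phosphodiesterase, which splits the head groups left from lipid breakdown, was at 144, 226, 193 and 152 FPKM in ahp4 mock roots and at 137, 91.7, 53.6 and 107 FPKM in BA roots. Its ahp4 shoots had 15.6, 9.69 and 25.6 FPKM in mock and 50.7, 45.6 and 28.3 FPKM with BA. The groups did not overlap in either organ, though the closest libraries were near each other. In Col mock shoots replicate 1 stood at 55.7 FPKM and the other 3 at 6.56 to 14 FPKM. The organ difference was -2.23 ± 0.46 (adjusted p = 0.0098), from -0.93 ± 0.30 in roots (adjusted p = 0.0464) and 1.3 ± 0.35 in shoots (adjusted p = 0.0411). Each organ's call was lost under 13 of 22 alternatives, no filter and the fit of all 30 libraries among them (adjusted p up to 0.136 in roots and 0.225 in shoots), while the organ difference was called under all 21. TPPG, a trehalose-6-phosphate phosphatase, was at 32.7 to 54.2 FPKM in ahp4 mock roots and 21.9 to 30.5 FPKM in BA roots, and at 3.41 to 4.80 FPKM in mock shoots and 6.25 to 6.93 FPKM in BA shoots. It fell in roots (change -0.61 ± 0.14, adjusted p = 0.00851), with an organ difference of -1.16 ± 0.22 (adjusted p = 0.00619). Both calls were lost in the fit of all 30 libraries (adjusted p = 0.106 and 0.0624).

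ACL, annotated as an acetone-cyanohydrin lyase, was by contrast mainly a shoot gene. Its ahp4 roots had 14.8, 16.0, 16.0 and 14.7 FPKM in mock and 8.50, 9.37, 9.49 and 11.2 FPKM with BA. The ahp4 shoots had 131, 134 and 82.7 FPKM in mock and 217, 162 and 148 FPKM with BA. Both organs were without overlap. It fell in roots (change -0.63 ± 0.15, adjusted p = 0.0091), its shoot change was 0.61 ± 0.17 (adjusted p = 0.0534), and its organ difference was -1.24 ± 0.23 (adjusted p = 0.00569).

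**Figure D3:**
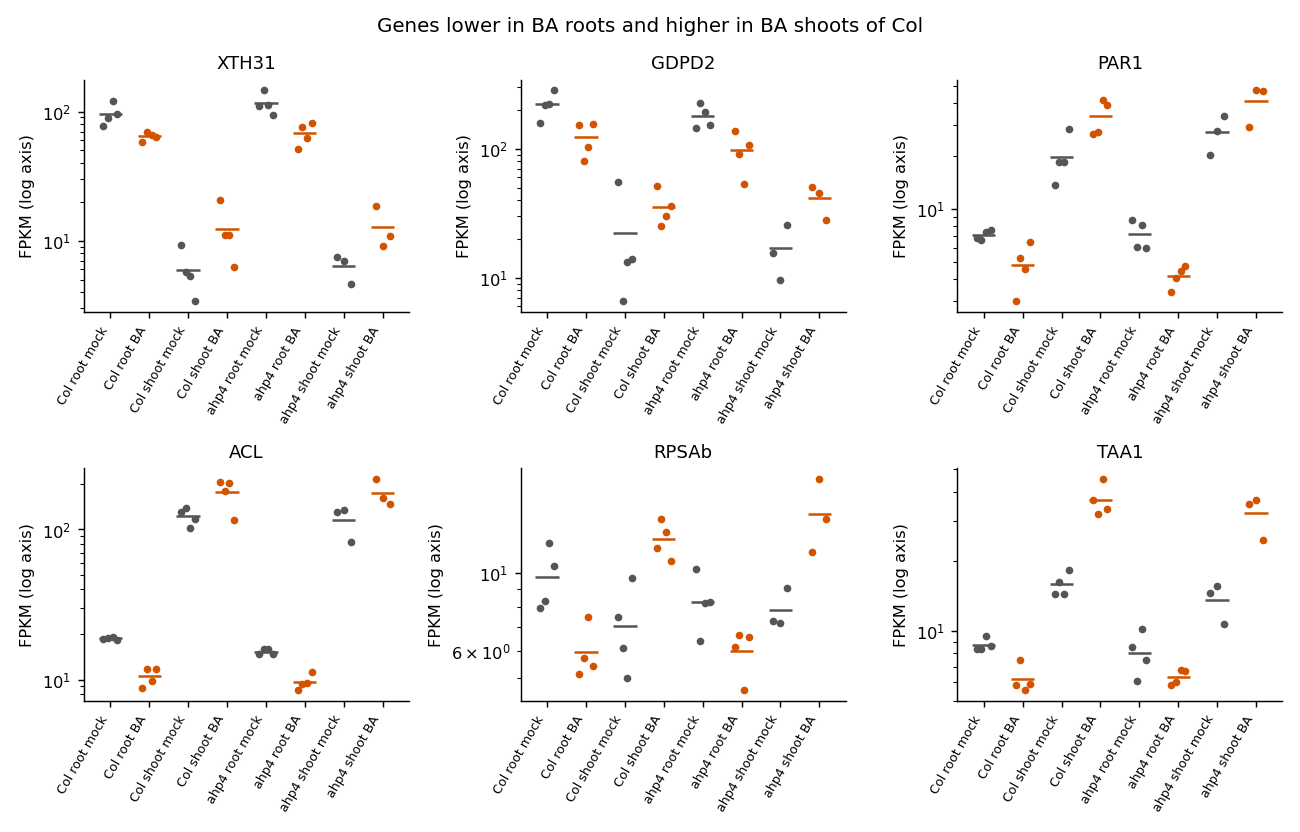
FPKM (log axis) of 6 genes by library in the 8 groups, with mock in grey, BA in orange and a line at each group mean. XTH31 and GDPD2 are higher in roots and ACL, PAR1 and TAA1 higher in shoots, while the BA shift is downward in roots and upward in shoots in each.

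PCNA1, the sliding clamp of DNA polymerase, was at 19.4, 15.7, 17.6 and 20 FPKM in ahp4 mock roots and at 11.2, 13.8, 11.6 and 12.8 FPKM in BA roots, without overlap. In ahp4 shoots it was at 6.73, 6.46 and 2.68 FPKM in mock and at 6.84, 10.9 and 10.3 FPKM with BA, where the groups nearly touched. The organ difference was -1.29 ± 0.31 (adjusted p = 0.021), and neither organ was called alone (adjusted p = 0.0947 in roots and 0.0718 in shoots). That call was lost without shoot BA replicate 2 or 3 (adjusted p up to 0.0596). DUT1, which keeps uracil out of DNA, was picked out after its values were seen. It rose by 0.82 ± 0.16 in ahp4 shoots (adjusted p = 0.00947), with a difference of -1.10 ± 0.22 (adjusted p = 0.00819). Its shoot call was lost without shoot BA replicate 2 (adjusted p = 0.0503).

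The ribosomal proteins RPL3B and RPSAb both overlap another gene and are uncertain. RPL3B, also picked out afterwards, was at 19.9, 19.1 and 16.7 FPKM in ahp4 mock shoots and at 33.2, 47.2 and 31.6 FPKM in BA shoots. It was at 37.6, 30.8, 33.2 and 32.4 FPKM in ahp4 mock roots and at 29.5, 28.5, 25.6 and 24.9 FPKM in BA roots, so neither organ overlapped. The shoot change was 0.95 ± 0.13 (adjusted p = 0.000959) and the organ difference -1.25 ± 0.18 (adjusted p = 0.00141). RPSAb rose by 0.81 ± 0.18 in ahp4 shoots (adjusted p = 0.0183), with a difference of -1.22 ± 0.24 (adjusted p = 0.00859). The shoot call was lost without shoot BA replicate 2 or shoot mock replicate 2 (adjusted p up to 0.0815). AR192, a GrpE co-chaperone that overlaps another gene, rose by 0.69 ± 0.16 in shoots (adjusted p = 0.02, and up to 0.0743 without shoot BA replicate 3 or shoot mock replicates 2 or 3), but its root change was -0.00 ± 0.14 and its difference was not called (-0.69 ± 0.21, adjusted p = 0.0553).

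The lowest adjusted p-values of the organ difference in the second set were those of AT3G59670 and AT5G28630, picked out afterwards. AT3G59670, annotated as an elongation factor, was at 18, 15.4, 17.2 and 18 FPKM in ahp4 mock roots and at 11.7, 12.1, 9.21 and 10.4 FPKM in BA roots. Its shoot libraries in ahp4 had 5.98, 4.35 and 3.42 FPKM in mock and 14.5, 20.2 and 13.7 FPKM with BA. On this scale every root library was above the shoot libraries in mock and below them with BA. Its organ difference was -2.24 ± 0.22 (adjusted p = 0.000156). AT5G28630, a glycine-rich protein, was at 25.8, 22.4, 24.8 and 21.6 FPKM in ahp4 mock roots and at 7.28, 6.01, 3.46 and 10.7 FPKM in BA roots. Its ahp4 shoots had 14.1, 18 and 13.2 FPKM in mock and 32.5, 27.3 and 28.2 FPKM with BA. Here too the order of the organs turned around with BA without overlap, and the organ difference was -2.65 ± 0.32 (adjusted p = 0.000644). Its shoot call (adjusted p = 0.0398) was lost under 15 of 22 alternatives, leaving out root mock replicate 1 among them (adjusted p up to 0.157). AT1G21050, a protein of the MIZU-KUSSEI-like family, had a difference of -1.49 ± 0.25 (adjusted p = 0.00328). Its shoot call was lost with shoot libraries of both genotypes alone and without shoot BA replicates 2 or 3 or shoot mock replicate 1 (adjusted p up to 0.0792).

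**Figure D4:**
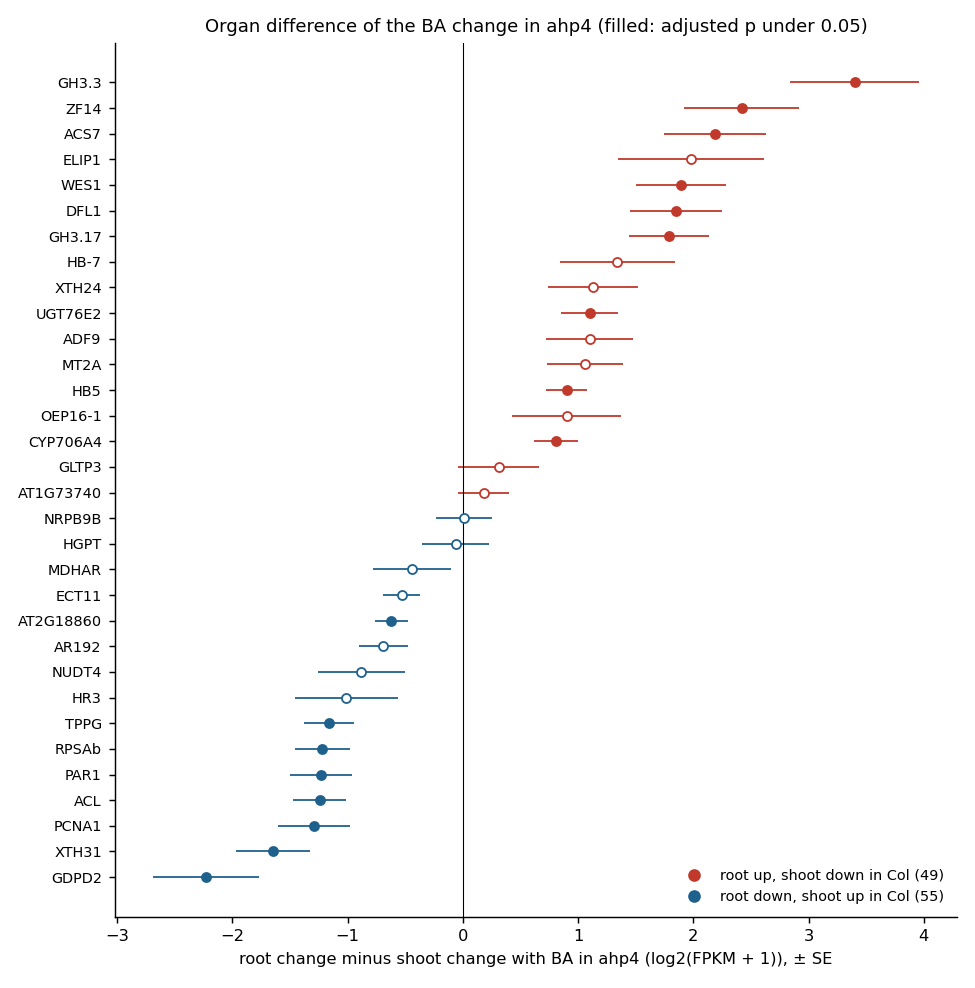
Root change minus shoot change with BA in ahp4, on the log2(FPKM + 1) scale with its SE, for 32 members with names fixed by rule, red for genes higher in roots in Col and blue for genes lower there. Filled points have an adjusted p under 0.05, and values run from -2.23 for GDPD2 to 3.40 for GH3.3.

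Small nucleolar RNAs (snoRNAs) formed 14 of the 55 genes lower in roots, or 25.5%, and 0 of the 49, while they were 0.487% of genes at the level minimum. These short RNAs guide the modification of ribosomal RNA in the nucleolus. Those of the C/D kind carry a box C near the start and a box D near the end. The 5 that held TGATGA in the first 25 and CTGA in the last 25 bases of the annotated gene are shown, from TAIR10.1, with both boxes in capitals. They lie at chr2:17923081-17923157, plus strand, chr2:15027589-15027668, minus strand, chr4:15466895-15466974, plus strand, chr1:6941285-6941373, plus strand, and chr3:18893230-18893310, minus strand, in the order given.
AT2G43137: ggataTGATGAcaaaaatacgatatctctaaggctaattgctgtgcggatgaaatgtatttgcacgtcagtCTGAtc
AT2G35742: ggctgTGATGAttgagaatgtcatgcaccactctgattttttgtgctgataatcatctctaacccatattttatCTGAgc
AT4G08615: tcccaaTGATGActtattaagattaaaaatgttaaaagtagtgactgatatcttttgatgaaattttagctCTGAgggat
AT1G20015: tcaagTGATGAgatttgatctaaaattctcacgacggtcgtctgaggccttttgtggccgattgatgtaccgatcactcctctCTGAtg
AT3G08165: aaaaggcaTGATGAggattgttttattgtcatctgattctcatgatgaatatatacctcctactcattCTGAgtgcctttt

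The 14 genes were 53 to 225 bases long and rested on few reads, with a median per library of 1 to 40 reads. The libraries were made from polyadenylated RNA, whereas mature snoRNAs carry no poly(A) tail as a rule, and which molecules these reads came from was not tested. AT2G04955 was at 14.3, 11, 12 and 7.81 FPKM in ahp4 mock roots and at 5.40, 11, 5.44 and 6.55 FPKM in BA roots. In ahp4 shoots it was at 6.73, 2.99 and 0.847 FPKM in mock and at 14.5, 19.3 and 11.8 FPKM with BA, without overlap. It rose by 2.05 ± 0.40 in shoots (adjusted p = 0.008), with an organ difference of -2.67 ± 0.53 (adjusted p = 0.00815). AT2G35742 rose by 1.97 ± 0.49 in ahp4 shoots (adjusted p = 0.0306), a call lost under 7 of 22 alternatives, voom among them (adjusted p up to 0.277). All 14 had the signs of Col in ahp4, beside 18.4% of all genes with that pair of signs. The organ difference was called lower in 4, beside 4.04% of all genes. AT2G04955 kept this call under all 21 alternatives. AT1G09787, AT4G08615 and AT2G35742 lost it under 11, 14 and 15 of them, voom among them each time (adjusted p up to 0.112, 0.183 and 0.154). These snoRNA genes were picked out after their values were seen.

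Summed over the 14 genes, ahp4 roots had 177 to 199 FPKM in mock and 95.8 to 146 FPKM with BA. The ahp4 shoots had 150 to 235 FPKM in mock and 261 to 410 FPKM with BA, so neither organ overlapped. Another 118 snoRNA genes were tested that had not been chosen. They were looked at after the members were seen. Their sum was 954, 798, 846 and 847 FPKM in ahp4 mock roots and 539, 687, 555 and 701 FPKM in BA roots. In ahp4 shoots it was 833, 728 and 662 FPKM in mock and 1029, 1295 and 1175 FPKM with BA. Here too every BA root library was below, and every BA shoot library above, the mock libraries of its organ. Scaled to each library's total rather than to FPKM, in RPM, the 118 genes held 96.2 to 126 in ahp4 mock roots, 64.9 to 85.5 in BA roots, 59 to 73.3 in mock shoots and 83.5 to 117 in BA shoots.

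Gene by gene, 67 of these 118, or 56.8%, were lower in roots and higher in shoots with BA in the ahp4 means, and 6 were the reverse, beside 18.4% and 24.1% of all genes tested. Of the 132 snoRNA genes, limma called 12 lower in ahp4 roots, 13 higher in shoots and 18 lower in the organ difference, beside 7.68%, 3.58% and 4.04% of all genes. The root count is near that background. Voom on rebuilt reads called 7, 4 and 8. Its root and shoot counts do not exceed those shares of all genes, which come from limma. No snoRNA gene was called the other way by limma or by voom, and at an unadjusted p under 0.05 only 1 gene, lower in shoots, was. The median change was -0.50 in roots and 0.54 in shoots. The Col libraries had also chosen the snoRNA members, so the Col values of the 118 are not an independent check. The Col counts are given without a share of all genes beside them. In Col the 118 had 50 genes lower in roots and higher in shoots and 10 the reverse. Their sum was 785 to 956 FPKM in Col mock roots and 577 to 735 FPKM in BA roots, while Col shoots had 600 to 854 FPKM in mock and 848 to 1245 FPKM with BA, which overlapped by 1 library.

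**Figure D5:**
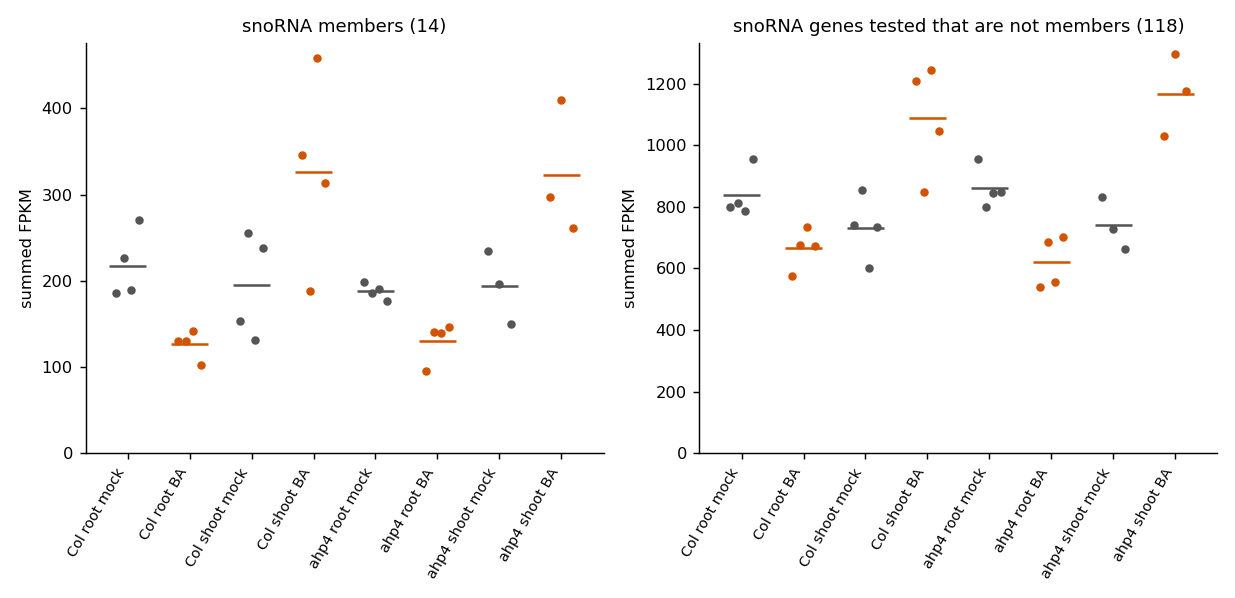
Summed FPKM of the 14 chosen snoRNA genes and of the 118 other snoRNA genes tested, by library in the 8 groups, with mock in grey, BA in orange and a line at each group mean. In ahp4 the BA libraries of both panels lie below mock in roots and above mock in shoots.

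The 10 members whose ahp4 signs differed from Col were AT1G45234, AT3G16712, AT1G24996, AT1G30730 and AT1G72690 of the first set and NRPB9B, MDHAR, AT5G57480, PHT3;3 and NUDT4 of the second. They were listed after their values were seen. MDHAR, which regenerates ascorbate, was at 121, 117, 104 and 134 FPKM in ahp4 mock roots and at 67.5, 68.9, 46.9 and 62.9 FPKM in BA roots, and it fell there (change -0.95 ± 0.23, adjusted p = 0.00947, and 0.0684 with a pseudocount of 0.1). Its ahp4 shoots were at 0.997, 3.07 and 3.33 FPKM in mock and at 2.14, 1.16 and 0.806 FPKM with BA, a change of -0.51 ± 0.26 (adjusted p = 0.297). NRPB9B, a subunit of RNA polymerase II, had changes of -0.35 ± 0.15 and -0.36 ± 0.18, neither called (adjusted p = 0.14 and 0.277), with an organ difference of 0.01 ± 0.24. AT5G57480 fell in roots (change -0.63 ± 0.09, adjusted p = 0.000332, and 0.108 in the fit of all 30 libraries), with -0.38 ± 0.11 in shoots (adjusted p = 0.0538). HGPT, which salvages purines, kept its signs with a difference of only -0.06 ± 0.29 (adjusted p = 0.927). HR3, a homolog of the RPW8 resistance proteins, had one of -1.01 ± 0.45 (adjusted p = 0.189).

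The lists of type-A response regulators, cytokinin oxidases, Aux/IAA repressors, PIN carriers, nitrate transporters, aquaporins, SWEET and UMAMIT transporters held no member. The type-A list had 8 genes at the level minimum, and in ahp4 10 of 10 rose in roots and 8 in shoots. Of 24 Aux/IAA genes at the minimum, which are early auxin-response genes, none was a member, and of 29 tested in ahp4 9 rose and 1 fell in roots, with 6 higher organ differences. The UMAMIT list had 13 of 36 lower and 1 higher in ahp4 roots and 7 lower organ differences. WRKY factors had 12 higher organ differences among 58 tested, and none of 28 at the level minimum was a member. Over all genes tested, 9.78% rose and 7.68% fell in ahp4 roots and 3.58% rose in shoots, while the organ difference was higher in 4.42% and lower in 4.04%.

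Before treatment, the chosen genes were neither all root genes nor all shoot genes. In mock ahp4, 16 of the 49 were higher in roots and 17 lower, beside 38.4% and 32.5% of all genes tested. Of the 55, 29 were higher in roots and 11 lower. The median root minus shoot level was -0.06 and 0.59, beside 0.07 over all genes. Levels between organs depend on the scaling. On read totals the median over all genes moved from 0.068 to 0.483, and the counts became 20 higher and 12 lower of 49, and 34 higher and 5 lower of 55. Extremes were MDHAR, at 5.19 toward roots, and AT2G45180, a lipid-transfer protein, at -5.29 toward shoots.

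Of the chosen genes 10 of 49 and 9 of 55 overlap another annotated gene, and without a stated use of strand their reads cannot be assigned with certainty. Members were spread over the chromosomes, and the only pair next to each other in gene order was the snoRNA genes AT2G04955 and AT2G04965 on chromosome 2. The snoRNA members AT2G35742 and AT2G08760 also lay close together, at chr2:15027589-15027668 and chr2:15027868-15028092, both on the minus strand, without being next to each other in that order.

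The promoters of both sets were searched for a few hormone and clock motifs. On both strands of the 300 bases before each gene, AGATT, the core of type-B response regulator sites, was found in 71.4% of the 49 and 72.7% of the 55, beside 70.8% of 32546 promoters. AGATC was found in 36.7% and 38.2%, beside 33% of all. TGTCTC was found in 14.3% and 21.8%, beside 13.1%. The G-box CACGTG was found in 6.12% and 1.82%, beside 6.48%, and the evening element AAAATATCT in 4.08% and 0%, beside 2.65%. Genes at the level minimum, from which the members were chosen, had 13086 promoters. Of these, 70.2% held AGATT, 31.2% AGATC, 12.6% TGTCTC, 8.28% CACGTG and 2.98% AAAATATCT. AGATT and AGATC differ only in the last letter, so no base starts both, and no test was made of these shares.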

How the data were processed

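RNA sequencing of 30 libraries was deposited by the authors as a table of FPKM, which corrects fragments for gene length and library depth, for 33199 features. Reads had been placed on TAIR10, per the submitters' processing notes. How they were aligned and counted, and whether by strand, is not given in the sources used here. Polyadenylated RNA was copied from random hexamers, per the labels' protocols. The FPKM values of 26893 of 26893 features above 0 were whole multiples of 1 read within 0.01 reads, which gave the read totals. The deposited scale was not one of read totals.

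Columns were matched to samples by description, and 0 columns of other samples were used. Groups were taken from the titles. Names, products, gene order and overlaps came from the TAIR10.1 RefSeq annotation, and printed coordinates and sequences are TAIR10.1, with its own gene starts. The files hold no coordinates.

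The test was limma 3.58.1 in R 4.3.3, with moderated variances that follow the mean, on log2(FPKM + 1) of the 14 ahp4 libraries in 1 fit of 4 groups, without a replicate block. Genes with 1 FPKM or more in at least 3 libraries were tested, and a Benjamini-Hochberg adjusted p under 0.05 over 20256 genes was called. Errors are standard errors of the log2 change, which understates low genes. The fit was checked on simulated data with 200 changed genes. Alternatives were another pseudocount, no filter, other scalings, other fits and thresholds, leaving out each library, and voom on rebuilt reads, which was added after seeing the data. Tables were made in pandas 2.3.3 and numpy 2.4.6 (python 3.11.15), and figures in matplotlib 3.10.9.

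The members, lists and tests were chosen with earlier results of these data known. Named genes were, per set, the 12 with a symbol and the largest smaller Col change, up to 8 with a symbol called in both organs, up to 4 called against Col (there were none), members of 10 pathway lists and the 3 on each side of the threshold. Genes named beyond that are said to be picked out after their values were seen.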

Additional observations from a re-analysis of the deposited data

Results flagged for a closer look

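Single libraries stood apart in 8 of the 192 groups of 4 libraries looked at over 32 named genes, by a gap to the next library beyond Dixon's 95% critical value for its share of the group's range. Chance flags about 1 in 20 such groups. In ahp4 mock roots the highest library was GH3.3 replicate 4 at 5.58 FPKM, beside 4.69 to 4.80 in the others, and HB-7 replicate 2 at 36.1 FPKM, beside 21.6 to 23.6. GH3.17 replicate 2 was at 39.3 FPKM, beside 17.2 to 20.6, and ADF9 replicate 4 was the lowest at 3.3 FPKM, beside 4.98 to 5.16. In Col mock shoots GDPD2 replicate 1 was at 55.7 FPKM, beside 6.56 to 14, and TPPG replicate 1 was at 11 FPKM, beside 3.97 to 4.14. In Col BA roots TPPG replicate 4 was at 42.1 FPKM, beside 24.5 to 27.1, and NUDT4 replicate 1 was at 32.4 FPKM, beside 10.8 to 13.9.

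The response to BA differed between roots and shoots of ahp4 by the test of the difference itself (limma, adjusted p under 0.05 over all genes) for 17 named genes. Root minus shoot change was 3.40 for GH3.3, 2.42 for ZF14, 2.19 for ACS7, 1.89 for WES1, 1.85 for DFL1, 1.79 for GH3.17, 1.1 for UGT76E2, 0.90 for HB5 and 0.81 for CYP706A4. It was -2.23 for GDPD2, -1.65 for XTH31, -1.29 for PCNA1, -1.24 for ACL, -1.23 for PAR1, -1.22 for RPSAb, -1.16 for TPPG and -0.62 for AT2G18860. The call was lost for UGT76E2 by voom and in the fit of all 30 libraries (adjusted p up to 0.275), for TPPG in that fit (0.0624), for CYP706A4 without shoot mock replicate 2 (0.0516), and for PCNA1 without shoot BA replicate 2 or 3 (up to 0.0596).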

How the results depend on the processing

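Of the 49 genes, the share called lower in ahp4 shoots, 18.4%, was the least steady value: 10.2% with no filter, 12.2% on read totals, 8.16% with quantile normalization, 10.2% with shoot libraries alone and Col, 10.2% by voom, 11.9% for members by a threshold of 0.3 and 0% (0 of 11) by 0.6. Leaving out 1 library gave 2.04 to 24.5%, and it moved by over 1.5 times without root BA replicate 2, root mock replicates 3 or 4, shoot BA replicates 2 or 3, or shoot mock replicates 1, 2 or 3 (2.04% without shoot mock replicate 2). For the 55 genes higher in shoots (32.7%) the range was 16.4 to 34.5%, and it moved that far without shoot BA replicate 2 or shoot mock replicate 2. Leaving out 1 ahp4 library gave 32.7 to 55.1% and 25.5 to 34.5% called in roots, 46.9 to 65.3% and 38.2 to 54.5% in the organ difference, and mock levels higher in roots in 26.5 to 34.7% and 47.3 to 54.5%, lower in 30.6 to 36.7% and 16.4 to 20%. The thresholds were met again in ahp4 by 30.6 to 46.9% and 34.5 to 45.5%, and by 25% of the second set at a threshold of 0.6. Leaving out 1 Col library gave 43 to 73 and 48 to 71 members, and a pseudocount of 0.1 gave 82 for the first set. Members at 0.6 were higher in mock roots in 9.09% (first set) and lower in 0% (second set), and on read totals 9.09% of the 55 were lower. Other alternatives kept these shares within 1.5 times, and no named gene's call changed sign. By voom 25, 5 and 21 of the 49 were called in roots, shoots and the organ difference, and 21, 15 and 23 of the 55. The causes were not tested.

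The replicate numbers gave no clear pairing of the libraries: same-numbered libraries deviated together in 4 of 13 pairs by a correlation over 0.1 (-0.11 to 0.20), and 6 of 13 matched their own number best. With so few libraries per group, this check cannot exclude pairing. With a replicate block, 51% and 45.5% were called in the organ difference, 44.9% and 29.1% in roots, and 16.3% and 27.3% in shoots. The chosen snoRNA genes had a median of 1 to 40 reads per library, which limits their precision.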

Other observations

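Ribosomal protein genes, picked by product name after RPL3B and RPSAb had been seen, numbered 305 among the genes tested in ahp4. Of these, 51 rose in shoots by limma, beside 3.58% of all genes, and 5 rose in roots, beside 9.78%. The organ difference was lower in 48, beside 4.04%, and higher in 3, beside 4.42%. The median change was 0.19 in shoots and -0.09 in roots.

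Membership itself rested on single Col libraries in many genes. When each of the 16 Col libraries was left out in turn, 18 of the 49 and 14 of the 55 genes met the rule each time.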
